A study of Homo sapiens with 72 samples.

Results

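The RNAs described here are the long RNA polymerase III transcripts that form the cores of 4 RNA-protein machines: 7SL (RN7SL1, RN7SL2 and RN7SL3), 7SK (RN7SK), the RNA of RNase MRP (RMRP) and the RNA of RNase P (RPPH1). They were chosen by gene symbol, with earlier results of these tables known, namely the low RN7SL1 values after immunoprecipitation and after arsenite, so those values are given as a description. The 6 members correspond to 8 of the 61541 gene IDs in each of the 11 tables, because RN7SK and RMRP each have 2 IDs.

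7SL RNA is the scaffold of the signal recognition particle, which binds signal peptides as they leave the ribosome and brings the ribosome to the endoplasmic reticulum. 7SK RNA holds the elongation factor P-TEFb in an inactive complex, RNase P trims the 5′ leader of tRNA precursors, and RNase MRP cuts ribosomal RNA precursors. When newly made, these RNAs end in uridine tracts bound by the La protein, and as a class they lack the long poly-A tails of messenger RNAs. The libraries were made from RNA selected on oligo-dT beads, per the labels' protocols, so the values are the part of these RNAs that came through that selection.

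G3BP1 is an RNA-binding protein that nucleates stress granules, and the comparisons asked which RNAs it binds and which change when it is lost or returned. For RNA immunoprecipitation (RIP), Flp-In T-REx 293 cells, an embryonic kidney line, carried a stable FLAG-tagged G3BP1 induced with 1 ug/mL tetracycline for 24 h, and 3 precipitated (IP) libraries stood against 3 of the input. U2OS osteosarcoma cells made up 2 experiments, each group having 2 libraries. The first held wild-type cells, cells lacking G3BP1 and its paralog G3BP2 (knockout), and knockout cells 24 h after transient transfection of a G3BP1 transgene (rescue). The second held the knockout without transfection, with a wild-type G3BP1 transgene (wild-type rescue) or with a transgene from which the NTF2 domain was deleted (NTF2-deletion rescue), each without and with 200 uM sodium arsenite for 2 h. All groups of the second experiment therefore carry the G3BP1/2 deletion, and the labels name no mock-transfected control and do not say whether the knockout is 1 clone.

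Gene reads per U2OS library ran from 37.7 to 51.2 M (megareads) in the first experiment and from 10.8 to 27.7 M in the second, and the RIP table averaged 12.2 M. G3BP1 had 12642 and 12621 normalised reads in the first experiment's knockout libraries against 19031 and 18103 in wild type, and as the labels do not give the part of the gene that was deleted, its read level is no check of the deletion. G3BP1 had 20083 and 20347 in the first experiment's rescue libraries. In the second experiment it had 3818 and 3890 in untreated knockout libraries and at least 591137 in every transfected one. Of 5 mesenchymal marker genes, the 4 with reads recovered summed to 94515 and 90089 normalised reads in the first experiment's knockout libraries and to 271331 and 255983 in wild type. COL1A1, the type I collagen gene, had a log2 fold change of -2.73 in knockout against wild type in the authors' deposited table. In the second experiment's wild-type rescue against knockout, 3 of the 5 markers were called lower and 1 higher in the authors' deposited table, with COL1A1 at -1.56 (SE 0.05), RUNX2 at -1.24 (SE 0.27), CDH2 at -0.47 (SE 0.07) and VIM, the most abundant, at 0.36 (SE 0.04). NTF2-deletion rescue also had 3 called lower and 1 higher, with COL1A1 at -1.46 (SE 0.06). In RIP, 4 of 5 embryonic kidney line markers were tested and 1 was listed at 0. Of 5 markers of other cell types (PTPRC, CD68, PECAM1, EPCAM and ALB) the 2 with reads recovered summed to 357 to 595 normalised reads in the first and 48.8 to 126 in the second experiment. In both experiments the groups thus differed in more than G3BP1, and the part of this in the values below was not tested. In these bulk libraries, fewer cells with an RNA and less of it per cell cannot be told apart.

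Only RN7SL1 (ENSG00000276168) and RN7SL3 (ENSG00000278771) had reads. RN7SL2, RN7SK, RMRP and RPPH1, with 6 IDs between them, were listed at 0 in all 11 of the authors' deposited tables. A count of 0 allows up to 3 reads per library, which is 0.0586 to 0.278 RPM (reads per M gene reads) in the U2OS libraries. The deposited tables count multimapping reads on a line of their own, with a mean of 1.11 M normalised reads per library in RIP and 3.99 M in the knockout against wild-type table. RN7SL1, RN7SL2 and RN7SL3 are near-identical in sequence, so how reads fell to one copy, to another or to the multimapping line is uncertain, and for RN7SK and RMRP the effect of having 2 IDs was not tested. Listed at 0 therefore says nothing of how much 7SK, RMRP or RNase P RNA the cells held.

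The other polymerase III transcripts were thin too. Of 14 listed (Y RNAs, vault RNAs and others), 5 were tested in the knockout against wild-type table and 3 were listed at 0. BCYRN1 (BC200 RNA), which shares a 7SL-derived domain and carries an internal A-rich tract, was the one with many reads, and its values are given beside those of RN7SL1. The 677 other RN7SL symbols, almost all of them pseudogene copies, had 434 listed at 0 in that table and none with a base mean above 65.7.

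In RIP, the fold changes of both 7SL genes from input to IP were among the lowest of the tested genes whose base mean reached 50. RN7SL3 had 1, 0 and 1 reads in the 3 IP libraries and 151, 92 and 114 in the 3 input libraries, as recovered from the deposited base mean, so the groups lay far apart. The ratio of input to IP was 181, with an exact 95% counting interval from 49.7 to 1499 that covers counting error only. For RN7SL1 the reads of single libraries could not be recovered, and the deposited base mean and fold change give group levels of 93.5 normalised reads in IP and 6605 in input. In the authors' deposited table RN7SL1 had a log2 fold change of -6.12 (SE 0.13, n = 3 per group) and RN7SL3 one of -6.31 (SE 0.66). Both were called lower in IP at an adjusted p-value under 0.05 in the authors' DESeq2 test, where 31.4% of tested genes were called lower. Among the 11658 tested genes whose base mean reached 50, 3 had a lower fold change than RN7SL1 and 1 a lower one than RN7SL3. With Wald statistics divided by their robust spread over well-expressed genes, the RN7SL3 call was not made.

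The multimapping line differed little between IP and input, with a log2 fold change of 0.02 (SE 0.09) in the authors' deposited table. Reads outside annotated genes were lower in IP, at -3.33 (SE 0.14), and this line's part in the result was not tested. The RN7SL pseudogene copies were low as well: 36 of 87 tested were called lower and 0 higher, with a median of -1.98 against -0.26 over all tested genes. BCYRN1 stood at -0.04 (SE 0.18, adjusted p = 0.872 in the authors' deposited DESeq2 table), beside -6.12 for RN7SL1. SNORD3A, the U3 small nucleolar RNA and a polymerase II transcript without a poly-A tail, was at -5.22 (SE 0.88) from a base mean of 14.02.

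The messenger RNAs of the particle's proteins did not follow their RNA. Of 8 genes for signal recognition particle proteins and the receptor, 4 were called higher and 1 lower in IP in the authors' deposited table, with a median of 0.37 against -0.26 over all tested genes. Of all tested genes 24.7% were called higher in IP. SRPRB, the receptor subunit anchored in the membrane, was highest at 2.08 (SE 0.16). SRP14, which with SRP9 forms the domain that pauses translation, stood at 1.06 (SE 0.13). SRPRA, the receptor subunit that binds the particle, was the one called lower, at -0.64 (SE 0.14), and is named for that. The 7SK particle and P-TEFb list split, with 3 of 7 higher and 3 lower, among them CDK9, the kinase of P-TEFb, at 1.10 (SE 0.15) and CCNT1, its cyclin, at -1.19 (SE 0.11). Of 12 RNase P and RNase MRP protein genes 9 were called higher and 3 lower, from RPP25L at 2.24 (SE 0.16) to POP1, the largest subunit, at -2.62 (SE 0.17). SSB, the La protein gene, was called higher at 0.94 (SE 0.15).

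**Figure D1:**
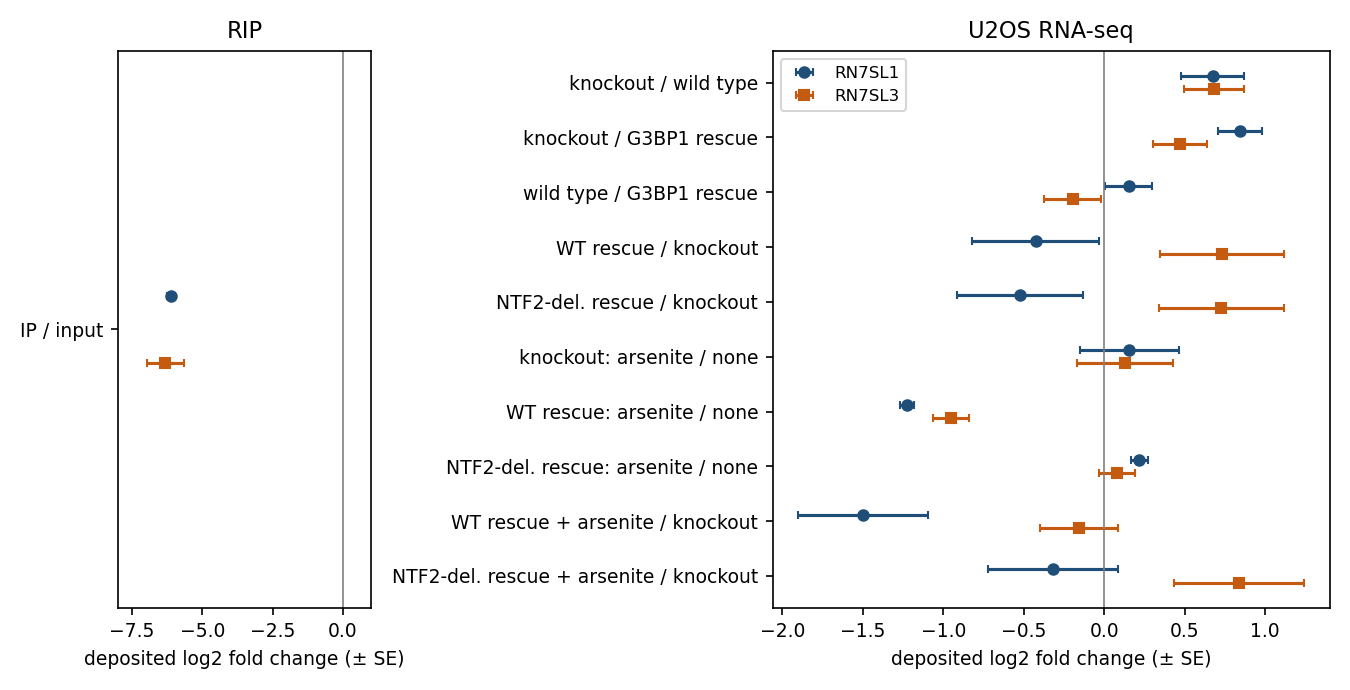
Deposited log2 fold changes of RN7SL1 (circles) and RN7SL3 (squares) in the 11 tables, with the authors' standard errors as bars. RIP has its own axis on the left, where both lie below -6. Among the U2OS tables on the right, both were called lower in the arsenite response of wild-type rescue cells and higher in both first-experiment comparisons of knockout cells. Without both being called, they also lie above 0 together in the arsenite responses of knockout and NTF2-deletion rescue cells. They lie below 0 together in wild-type rescue with arsenite against knockout.

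Both 7SL genes were higher in knockout than in wild-type U2OS cells. RN7SL1 had 6534 and 7912 normalised reads in the knockout libraries and 4882 and 3940 in wild type. RN7SL3 had 341 and 408 in knockout and 226 and 228 in wild type. Neither gene's groups overlapped, as was true of 78.1% of the 20655 genes that averaged 10 or more normalised reads. The ratio of group means was 1.64 for RN7SL1 (7223 ± 974 against 4411 ± 666, SD, n = 2 each) and 1.65 for RN7SL3 (374.6 ± 47.3 against 227 ± 1.20). In the authors' deposited table the log2 fold changes were 0.67 (SE 0.19, adjusted p = 0.00197, DESeq2) and 0.68 (SE 0.19, adjusted p = 0.000923, DESeq2). Both of the 2 tested members were called higher, in a table where 18.4% of tested genes were.

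The rescue libraries lay near wild type. RN7SL1 had 3771 and 3982 normalised reads and RN7SL3 254 and 267, all below both knockout libraries. Against rescue, knockout cells had log2 fold changes of 0.84 (SE 0.14, adjusted p = 4.63e-09, DESeq2) for RN7SL1 and 0.47 (SE 0.17, adjusted p = 0.0168, DESeq2) for RN7SL3 in the authors' deposited table. Both were called higher, as were 16.1% of tested genes, and 76.1% of genes had groups that did not overlap. Wild type and rescue differed by 0.15 (SE 0.14, adjusted p = 0.475, DESeq2) for RN7SL1 and by -0.20 (SE 0.18, adjusted p = 0.449, DESeq2) for RN7SL3 in the authors' deposited table, so 0 of 2 were called, where 35.6% of tested genes were. The tables share their libraries pairwise and are not independent of one another.

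These calls depended on the test's spread. With the Wald statistics divided by their robust spread, neither copy was called in either comparison of knockout cells. In limma fits on the recovered reads, both copies were called higher in knockout in both comparisons. Over the 6 fits that left out 1 library, knockout minus wild type ran from 0.56 to 0.87 for RN7SL1 and from 0.59 to 0.84 for RN7SL3. Knockout minus rescue ran from 0.75 to 1.03 and from 0.39 to 0.65 in turn.

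Other RNAs without poly-A tails were mixed in the first experiment. SNORD3A had 1913 and 1969 normalised reads in knockout, 642 and 658 in wild type and 813 and 693 in rescue. It was the 1 called higher of 12 tested polymerase II small RNAs of its kind, whose median was -0.04 in knockout against wild type in the authors' deposited table. Of 34 replication-dependent histone genes tested, whose messages end in a stem-loop and not in a poly-A tail, 22 were called higher and 0 lower in knockout against wild type in the authors' deposited table, with a median of 1.21 against 0.01 over all tested genes. Their summed normalised reads were 47473 and 47306 in knockout, 32142 and 34841 in rescue and 9822 and 9837 in wild type. RN7SL3 had its groups in the same order, though its wild type and rescue were not called different. For RN7SL1 wild type and rescue overlapped. In wild type against rescue 0 of 32 histone genes were called higher and 14 lower. The multimapping line was higher in knockout by 0.21 (SE 0.05) in the authors' deposited table. The part of these RNAs and of multimapping reads in the 7SL result was not tested. Of the markers of other cell types, 2 of 5 were tested and PTPRC was called lower, and the list summed to 425 and 415 normalised reads in knockout and 595 and 510 in wild type. BCYRN1 went the other way and by far more: 311 normalised reads in each knockout library against 5211 and 5352 in wild type and 5950 and 6590 in rescue. The 4 genes nearest to RN7SL1 in RefSeq order (GRCh38.p14) ran from -1.21 to -0.03 and those nearest to RN7SL3 from -0.71 to -0.44, the opposite sign to RN7SL1 and RN7SL3.

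The messenger RNAs of the protein partners showed no common direction. In knockout against wild type 2 of 8 signal recognition particle genes were called higher and 3 lower in the authors' deposited table, with a median of -0.05, where 18.4% and 19.4% of tested genes were called in turn. SRP68, which binds 7SL RNA together with SRP72, fell to -0.95 (SE 0.07). SRP9, which forms the pausing domain with SRP14, rose to 0.40 (SE 0.07). SRP54, which binds the signal peptide, fell to -0.37 (SE 0.07). Of the 13 RNA polymerase III subunit genes 3 were higher and 2 lower, led by POLR3E at 1.01 (SE 0.07). Among 19 genes for polymerase III transcription factors and regulators 7 were higher and 8 lower. SNAPC1, a subunit of the complex that binds the promoters of 7SK, RMRP and RNase P RNA genes, was lowest at -1.12 (SE 0.08).

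**Figure D2:**
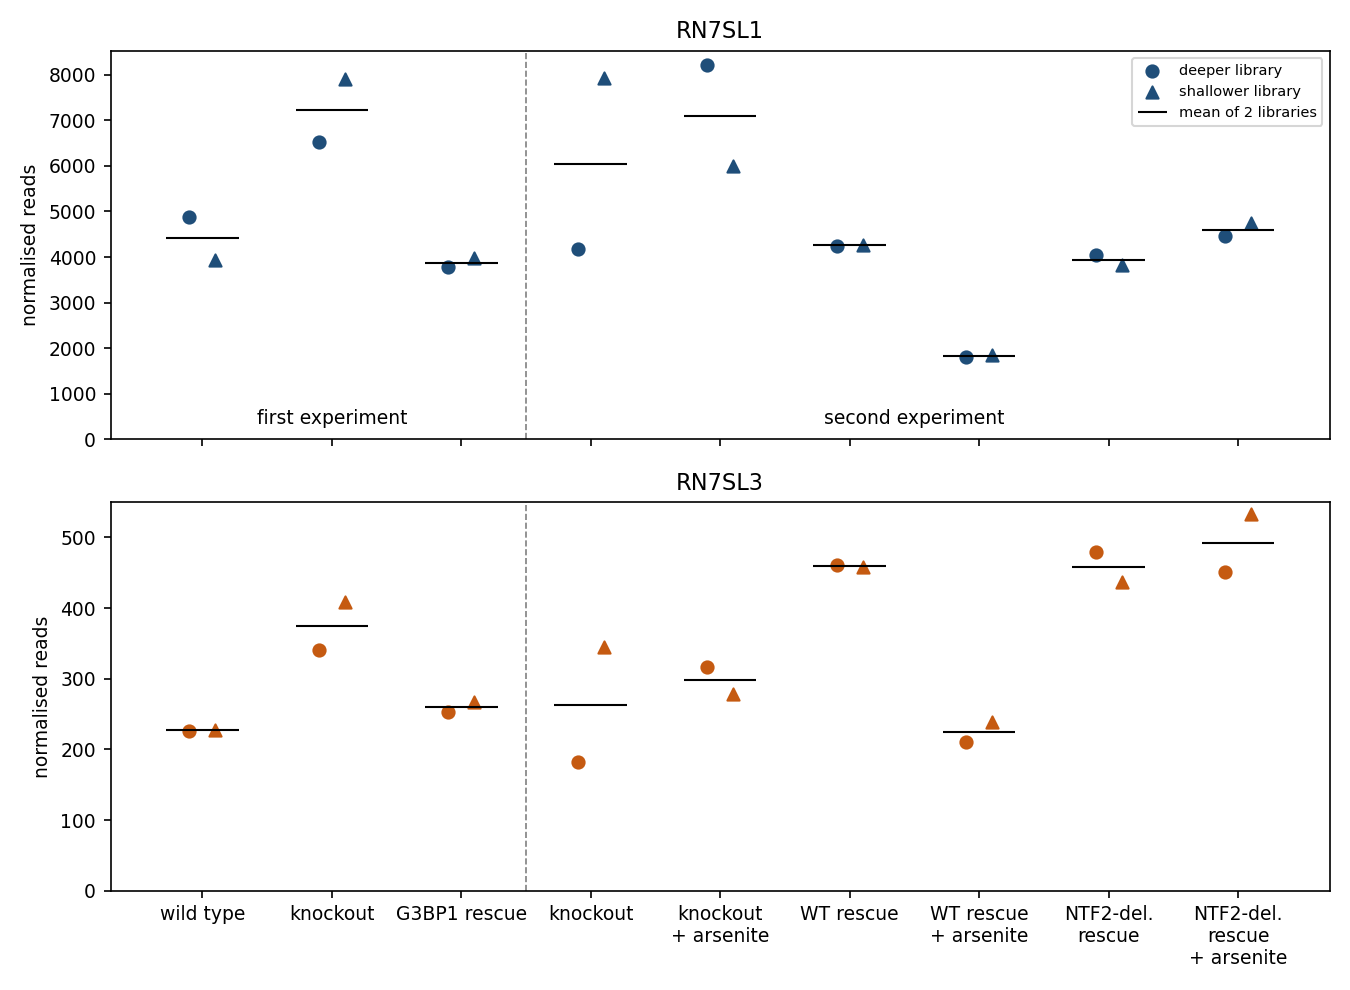
Normalised reads of RN7SL1 (top) and RN7SL3 (bottom) in each of the 18 U2OS libraries, with the 2 libraries of a group named by their size factor (circle, deeper; triangle, shallower) and bars at group means; the dashed line parts the 2 experiments, whose scales are set separately. RN7SL1 is lowest in wild-type rescue cells with arsenite (1799.8 and 1841), and the 2 untreated knockout libraries of the second experiment lie far apart (4169 and 7927).

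In the second experiment the 2 untreated knockout libraries disagreed on both 7SL genes. RN7SL1 had 4169 normalised reads in the deeper and 7927 in the shallower library, and RN7SL3 had 182 and 345. Gaps of 0.93 and 0.92 log2 units made these 2 the most divergent of 10520 genes with at least 100 normalised reads in both libraries. Over the 10963 genes averaging 100 or more, the median gap was 0.10. Of those, 11 had a gap at least that of RN7SL1 and 12 at least that of RN7SL3, each gene itself included. Because both copies shifted together, RN7SL1 reads per RN7SL3 read were close in the 2 libraries, 22.9 and 23.0. Every comparison with this group rests on these 2 libraries.

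With that spread, the authors' tests called neither gene in rescue against knockout. RN7SL1 had 4249 and 4265 normalised reads in wild-type rescue and 4040 and 3828 in NTF2-deletion rescue, just above and just below the lower knockout library. RN7SL3 had 461 and 458 in wild-type rescue and 479 and 438 in NTF2-deletion rescue, above both knockout libraries, as 82.1% of genes had groups that did not overlap in the first of these comparisons. The log2 fold changes for wild-type rescue were -0.43 (SE 0.39, adjusted p = 0.425, DESeq2) for RN7SL1 and 0.73 (SE 0.39, adjusted p = 0.120, DESeq2) for RN7SL3 in the authors' deposited table. For NTF2-deletion rescue they were -0.52 (SE 0.39, adjusted p = 0.314, DESeq2) and 0.73 (SE 0.39, adjusted p = 0.128, DESeq2) in the authors' deposited table. Of the 2 members 0 were called in either, where 42.1% and 41.5% of tested genes were. In the limma fit on recovered reads RN7SL3 was higher than in knockout by 0.87 (SE 0.16) in both rescues (adjusted p = 3.11e-05 and 3.34e-05, limma), where 35.9% and 35.6% of tested genes were called higher. Over the fits that left out 1 library, the RN7SL3 difference ran from 0.41 to 1.33 for wild-type rescue. The limma spread was pooled over all groups. A fit without 1 knockout library also drops the gap between the 2, so its call says nothing of that gap. RN7SL1 was called lower in the limma fit on all libraries. Without the shallower knockout library its difference was 0.03 for wild-type rescue and -0.08 for NTF2-deletion rescue, and neither was called. The call for wild-type rescue was also lost without either library of that group.

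The first experiment's order was therefore met for RN7SL1 in sign and not in its test, and not for RN7SL3, whose fold change had the opposite sign: in the first experiment it was higher in knockout than in rescue, and in the second lower. The rescues of the experiments also differed in G3BP1 reads. In the authors' deposited tables its log2 fold change was -0.69 (SE 0.04) in the first experiment's knockout against rescue. In the second experiment's wild-type rescue against knockout it was 7.31 (SE 0.04). The 7SL difference between the experiments was not tested, nor was the part of G3BP1 level in it.

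The 2 copies also differed in their ratio to each other, a value that does not depend on how libraries are scaled. In the second experiment, the 4 untransfected libraries held 21.5 to 25.9 RN7SL1 reads per RN7SL3 read and the 8 transfected libraries 7.72 to 9.89, with no overlap. The means were 23.3 ± 1.83 (SD, n = 4) and 8.85 ± 0.65 (SD, n = 8), a factor of 2.64. Arsenite moved the ratio little: 8.56 and 7.72 with it and 9.22 and 9.32 without it in wild-type rescue. In the first experiment the ratio was 19.2 and 19.4 in knockout, 21.6 and 17.3 in wild type and 14.9 in both rescue libraries, so the transfected libraries there also had the lower values. This ratio was chosen after the values were seen and is given with no test. Transfection, the plasmid and the transgene cannot be told apart in this design, and reads of near-identical copies can be misplaced between them.

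**Figure D3:**
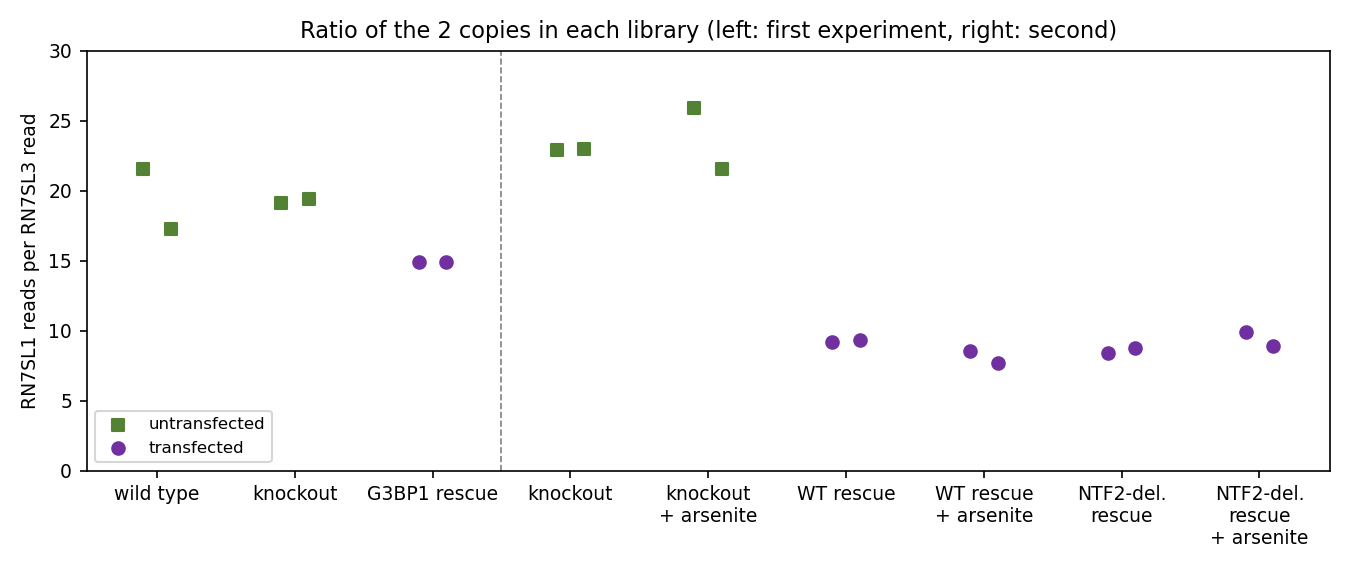
RN7SL1 reads per RN7SL3 read in each of the 18 U2OS libraries (squares, untransfected; circles, transfected; axis from 0). In the second experiment all transfected libraries lie at 9.89 or below and all untransfected ones at 21.5 or above, and in the first experiment both rescue libraries lie at 14.9.

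BCYRN1 parted the same libraries in the second experiment, where groups did not overlap for 82.1% of 16657 genes in wild-type rescue against knockout. It had 86.1 to 121 normalised reads in the 4 untransfected and 303 to 361 in the 8 transfected libraries. In the authors' deposited table its log2 fold change in wild-type rescue against knockout was 1.66 (SE 0.23, adjusted p = 1.13e-11, DESeq2). In that deposited table, of the polymerase III genes, 12 of 13 for subunits and 14 of 19 for factors were called higher and 0 lower, where 23.0% of all tested genes were called higher. POLR3G, a subunit of one of the enzyme's 2 forms, stood at 1.97 (SE 0.19) and SNAPC1 at 2.14 (SE 0.12). Of the 8 signal recognition particle genes 6 were called higher and 0 lower, among them SRP72, the partner of SRP68, at 0.98 (SE 0.06) and SRPRB at 1.13 (SE 0.10). The medians were 0.98, 0.59 and 0.44 in turn, against -0.03 over all tested genes and 0.18 over the 10732 whose base mean reached 100.

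After arsenite, both 7SL genes fell in cells rescued with wild-type G3BP1. RN7SL1 had 4249 and 4265 normalised reads without arsenite and 1799.8 and 1841 with it. RN7SL3 had 461 and 458 without and 210 and 238 with it. The groups lay far apart, a 2.34-fold drop for RN7SL1 (4257 ± 11.5 to 1820.3 ± 29.0, SD, n = 2 each) and a 2.05-fold drop for RN7SL3 (459 ± 2.04 to 224 ± 19.9). Libraries of the groups did not overlap for 59.0% of genes. In the authors' deposited table the log2 fold changes were -1.23 (SE 0.04) and -0.95 (SE 0.11), and both members were called lower, where 12.2% of tested genes were. Among the 10941 genes whose base mean reached 100, ranked from the lowest fold change, RN7SL1 was number 3 and RN7SL3 number 7.

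The arsenite libraries of these cells were the deepest of the second experiment, at 27.7 and 19.1 M gene reads against 14.2 and 13.8 M without arsenite. RN7SL1 fell from 275 and 277 to 116 and 119 RPM, so the difference is also there without size factors. The multimapping line was lower with arsenite, at -0.35 (SE 0.01) in the authors' deposited table, and its part was not tested. Of the 5 markers of other cell types 1 was tested, EPCAM, which was called lower, and 1 was listed at 0. That list summed to 92.3 and 89.5 normalised reads without and 51.6 and 48.8 with arsenite. It was also lower with arsenite in knockout cells, from 126 and 125 to 49.2 and 74.6, with EPCAM called lower at -0.80 (SE 0.27) in the authors' deposited table. The pseudogene copies did not move with the 2 genes: the 55 with reads recovered summed to 465 and 487 normalised reads without and 479 and 519 with arsenite. The 4 genes nearest to RN7SL1 in RefSeq order lay between -0.07 and 0.02 with 0 called, and those nearest to RN7SL3 between -0.04 and 0.35 with 3 called. BCYRN1 was at -0.06 (SE 0.11, adjusted p = 0.791 in the authors' deposited DESeq2 table). SNORD3A was called lower at -0.40 (SE 0.11), and so was SNORA73B, a small nucleolar RNA, at -1.03 (SE 0.18), from 84.7 and 85.1 normalised reads to 21.9 and 29.3.

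In the other backgrounds neither gene was called lower. In NTF2-deletion rescue cells RN7SL1 had 4040 and 3828 normalised reads without and 4458 and 4748 with arsenite, and RN7SL3 479 and 438 without and 451 and 532 with it. The log2 fold changes were 0.22 (SE 0.05, adjusted p = 0.00138, DESeq2) and 0.08 (SE 0.11, adjusted p = 0.834, DESeq2) in the authors' deposited table, so 1 of 2 members was called higher, where 2.43% of tested genes were. That RN7SL1 call was also made with the Wald statistics divided by their robust spread and was not made by limma (0.23, SE 0.15, adjusted p = 0.386), except without either untreated knockout library. In knockout cells RN7SL1 had 4169 and 7927 without and 8206 and 5999 with arsenite, and RN7SL3 182 and 345 without and 317 and 278 with it, so the groups overlapped for both. The log2 fold changes were 0.15 (SE 0.31, adjusted p = 0.839, DESeq2) and 0.13 (SE 0.30, adjusted p = 0.865, DESeq2) in the authors' deposited table, and 0 of 2 were called, where 19.4% of tested genes were. The difference depended on single libraries: in the limma fit without the shallower untreated knockout library it was 0.75 for RN7SL1 and 0.71 for RN7SL3. Over the fits that left out 1 library RN7SL1 ran from -0.18 to 0.75 and RN7SL3 from -0.21 to 0.71. Such a fit leaves 1 group with 1 library, so only the differences are given here.

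The difference of arsenite responses was then compared between backgrounds over all genes whose base means reached 10, two-sided and with Benjamini-Hochberg adjustment, on the authors' deposited fold changes. Wild-type minus NTF2-deletion rescue gave -1.44 (SE 0.07, adjusted p = 4.34e-92) for RN7SL1 and -1.03 (SE 0.16, adjusted p = 1.51e-07) for RN7SL3, where 0.227% of 15865 genes were called lower. Wild-type rescue minus knockout gave -1.38 (SE 0.31, adjusted p = 0.000545) and -1.08 (SE 0.32, adjusted p = 0.0202), where 2.68% of 15648 genes were called lower. NTF2-deletion rescue minus knockout gave 0.06 (SE 0.31, adjusted p = 0.976) and -0.05 (SE 0.32, adjusted p = 0.984), and 0 of 2 were called, where 7.12% of genes were in either direction. These adjusted p-values describe genes whose fall in 1 of the tables was already known. With the prior undone the difference from knockout was no longer called (adjusted p = 0.0556 and 0.117), whereas the limma fit called it (adjusted p = 1.1e-05 and 0.000382). In the limma fit the difference between the rescues was called for RN7SL1 (adjusted p = 0.00355) and not for RN7SL3 (adjusted p = 0.0818).

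The 2 rescues were not called different in 7SL RNA without arsenite and were with it. Wild-type minus NTF2-deletion rescue was 0.11 (SE 0.15, adjusted p = 0.788, limma) for RN7SL1 and 0.00 (SE 0.16, adjusted p = 0.995, limma) for RN7SL3 without arsenite. In that fit 0 of 2 members were called, where 0.858% of tested genes were. With arsenite it was -1.34 (SE 0.15, adjusted p = 6.13e-06, limma) and -1.13 (SE 0.16, adjusted p = 0.000188, limma), and both were called lower, where 0.234% of tested genes were. Over the 12 fits that left out 1 library, the difference with arsenite ran from -1.38 to -1.29 for RN7SL1 and from -1.25 to -1.01 for RN7SL3. The fall in wild-type rescue with arsenite was already known, so these values are a description.

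In the 2 tables that set rescued cells with arsenite against untreated knockout cells, RN7SL1 was at -1.50 (SE 0.40, adjusted p = 0.000644, DESeq2) for wild-type rescue in the authors' deposited table and RN7SL3 at -0.16 (SE 0.24, adjusted p = 0.650, DESeq2). The 1 call among 2 members stood against 19.8% of tested genes called lower, and it was not made with the Wald statistics divided by their robust spread. For NTF2-deletion rescue the values were -0.32 (SE 0.40, adjusted p = 0.583, DESeq2) and 0.84 (SE 0.41, adjusted p = 0.0850, DESeq2) in the authors' deposited table, with 0 of 2 called and 43.0% of tested genes called in either direction. The limma fit called RN7SL3 higher there, at 0.97 (SE 0.16, adjusted p = 7.17e-06), as it did 36.3% of tested genes. Over the 12 fits that left out 1 library, the RN7SL3 difference ran from 0.51 to 1.43. These tables join the transgene and arsenite in 1 difference.

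The messenger RNAs of the partner proteins showed arsenite responses in both directions. In wild-type rescue cells 0 of 8 signal recognition particle genes were called higher and 2 lower, where 12.2% of tested genes were called lower. The 2 were SRPRB at -0.49 (SE 0.06) and SRPRA at -0.28 (SE 0.05) in the authors' deposited table. Both receptor genes were also called lower in knockout cells, at -0.89 (SE 0.13) and -0.43 (SE 0.10), and in NTF2-deletion rescue cells, at -0.26 (SE 0.07) and -0.31 (SE 0.07). HEXIM1, the protein that inhibits P-TEFb when bound to 7SK, was called higher in all 3, at 0.61 (SE 0.09) in knockout, 0.35 (SE 0.06) in wild-type rescue and 0.27 (SE 0.07) in NTF2-deletion rescue. CCNT2, a P-TEFb cyclin, rose in the same tables by 0.66 (SE 0.10), 0.32 (SE 0.05) and 0.24 (SE 0.08). Of the RNase P and RNase MRP protein genes tested, 0 of 11 were called in wild-type rescue and in knockout cells, and 0 of 10 in NTF2-deletion rescue cells. Over all tested genes 19.4% were called in either direction in knockout cells, and 2.43% were called higher in NTF2-deletion rescue cells. BRF2, the factor that starts transcription at 7SK-type promoters, rose in all 3, by 0.72 (SE 0.19) in knockout, 0.41 (SE 0.11) in wild-type rescue and 0.40 (SE 0.12) in NTF2-deletion rescue. BDP1 was the other factor called in knockout cells, at 0.68 (SE 0.11).

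**Figure D4:**
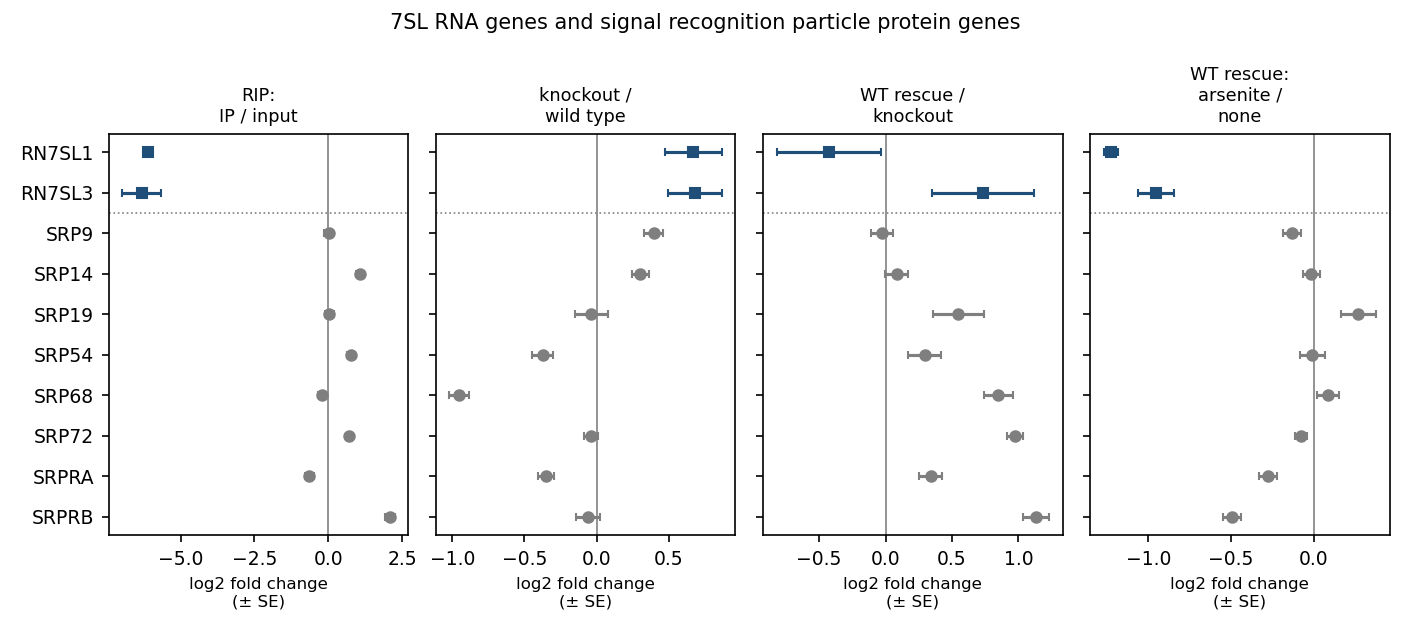
Deposited log2 fold changes with the authors' standard errors for RN7SL1 and RN7SL3 (squares) and for the 8 genes of signal recognition particle proteins and receptor (circles) in 4 tables, each with its own axis. In RIP the 2 RNAs lie below -6 and the protein genes between -0.64 and 2.08. After arsenite in wild-type rescue cells the 2 RNAs lie near -1 and the protein genes between -0.49 and 0.27.

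Ordered by group mean in the second experiment, RN7SL1 ran from 1820.3 ± 29.0 normalised reads in wild-type rescue with arsenite through 3934 ± 149.8 in NTF2-deletion rescue, 4257 ± 11.5 in wild-type rescue, 4603 ± 206 in NTF2-deletion rescue with arsenite and 6048 ± 2657 in knockout to 7103 ± 1560.5 in knockout with arsenite (SD, n = 2 each). The 3 lowest groups did not overlap their neighbours, and both knockout groups overlapped each other. RN7SL3 ran from 224 ± 19.9 in wild-type rescue with arsenite and 263 ± 115 in knockout to 492 ± 57.7 in NTF2-deletion rescue with arsenite. Over these 6 group means, on the log2 scale, the 2 copies had a Pearson correlation of 0.25. The 3 genes most like RN7SL1 among 10055 were ITPR2, an inositol trisphosphate receptor (0.948), LAGE3 (0.947) and NBPF1 (0.946). Those most like RN7SL3 were UBE2T (0.952), DYNLT1 (0.936) and S100A6 (0.925). RN7SL1 ranged over 1.96 log2 units in these means, and ITPR2, LAGE3 and NBPF1 over 0.64, 0.12 and 0.31, so the likeness is in shape and not in size. With 6 points that share libraries and depth, these values are descriptions.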

How the data were processed

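Per the labels' protocols, RNA was extracted with TRIzol, selected on oligo-dT beads and made into directional libraries. The submitters' processing notes name STAR (2.7.0f for RIP and the first experiment, 1.5.3 as listed for the second) and DESeq2 2.11.40.6. The genome build, the annotation, the read counter and its use of strand are not given in the sources used here. The deposited base mean is a signal, normalised reads averaged over a table's libraries. The deposited fold changes and standard errors are log2 values, shrunk toward 0 by the authors' normal prior. The deposited Wald statistic is a score, and the deposited p-values and adjusted p-values come from it. The 4 summary lines of the counting were kept out of all gene counts and tests.

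Whole reads per library were recovered from the deposited base means: genes with a single read gave each library's size factor and, from the sign of their fold change, its group, and the whole numbers that give a gene's base means in all tables of an experiment were then solved. This worked for 24293 of 24294 genes in the first and 20798 of 20798 in the second experiment with base means of at least 5, and was tested on simulated data. Recovered libraries carry no replicate numbers and are called deeper and shallower by size factor. They were normalised to median ratios within each experiment. limma 3.58.1 (R 4.3.3), chosen after the data were seen, was fitted on log2(normalised reads + 0.5) over genes with a mean of at least 10, without covariates. The labels do not say that replicates were separate cultures, so the spread between these libraries may be technical. The limma p-values rest on 1 spread per gene, pooled over all groups of an experiment and moderated toward other genes. For RN7SL1 the limma SE was thus 0.15 between any 2 groups of the second experiment, the divergent knockout pair included. In the deposited table of wild-type rescue against knockout it was 0.39. Calls use the 0.05 level of adjusted p-values. Differences between tables were tested against a normal distribution with summed squared standard errors. Members and gene lists were chosen with earlier results of these data known. Named genes were the members, at most 3 called genes per list and table with the largest fold changes, G3BP1, and the 3 genes most like RN7SL1. The copy ratio, the genes most like RN7SL3, and SRPRA in RIP and BCYRN1, SNORD3A and HEXIM1 across tables were added after their values were seen. Of 5 embryonic kidney line markers, 4 were tested in knockout against wild type, with 1 called higher and 1 lower. Of the series' 72 libraries, 48 are not analysed here. Alternatives are given in the closing section.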

Additional observations from a re-analysis of the deposited data

Results flagged for a closer look

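The arsenite response of both 7SL genes was called different between wild-type rescue and each other background, on the authors' deposited fold changes. These calls describe genes whose fall in 1 of the tables was already known, and not all of them held in the alternatives below. Between wild-type rescue and knockout cells the difference was -1.38 for RN7SL1 and -1.08 for RN7SL3. Between wild-type and NTF2-deletion rescue it was -1.44 for RN7SL1 and -1.03 for RN7SL3. All 4 include the fall in wild-type rescue cells with arsenite, at -1.23 for RN7SL1 and -0.95 for RN7SL3. The responses of the other backgrounds, which were subtracted from it, lay between 0.08 and 0.22. Wild-type rescue with arsenite was the group with the 2 deepest libraries of its experiment, and the multimapping line was lower there too, by -0.35 in the authors' deposited table. The part of either in the differences was not tested.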

How the results depend on the processing

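The authors' tables called 10 of 22 member and table pairs, and that count was also 10 after centring, after adjusting over genes with base means of at least 10 and after adjusting over all genes. With Wald statistics divided by their robust spread it was 4. Over the 10 U2OS tables the count was 8, against 12 with limma on recovered reads and 15 with reads scaled by total gene reads. With the prior undone, the difference of arsenite responses between wild-type rescue and knockout was -1.49 for RN7SL1 (adjusted p = 0.0556) and -1.25 for RN7SL3 (adjusted p = 0.117), no longer called. Summed copies, without a test, gave -1.44 for it and -1.42 for the difference between the rescues. For the latter, RN7SL3 was not called by limma at -1.13 nor at -1.14 with total scaling. Leaving out 1 library, that difference ran from -1.50 to -1.41 for RN7SL1, losing its call in 5 of 12 limma fits, and from -1.25 to -1.01 for RN7SL3. NTF2-deletion rescue minus knockout ran from -0.52 to 0.40 for RN7SL1 and from -0.61 to 0.31 for RN7SL3. RN7SL1 was at 0.40 without the deeper untreated knockout library and, with the opposite sign, at -0.52 without the shallower one, where RN7SL3 was at -0.61. The causes were not tested. Wild-type rescue minus knockout ran from -1.98 to -1.05 for RN7SL1 and from -1.74 to -0.82 for RN7SL3 over the 12 such fits. Each of these fits leaves 1 group with 1 library, so a call made in it says nothing of the spread in that group. No paired analysis was possible because the deposited tables and the reads recovered from them carry no replicate numbers. Reads of single RIP libraries were not recovered for RN7SL1, so no RIP library was left out. RN7SL3, with 167 to 544 reads per U2OS library, is the less precisely counted copy.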

Other observations

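The sum of the copies gives a view of 7SL RNA that does not depend on how reads fell between RN7SL1 and RN7SL3. In the first experiment the summed normalised reads were 6875 and 8320 in knockout, 5109 and 4168 in wild type and 4024 and 4249 in rescue. In the second they were 4351 and 8271 in knockout, 8523 and 6278 in knockout with arsenite, 4709 and 4723 in wild-type rescue, 2010.0 and 2079 in wild-type rescue with arsenite, 4519 and 4266 in NTF2-deletion rescue and 4908 and 5281 in NTF2-deletion rescue with arsenite. RN7SL1 made up most of every sum, so the sums followed its order.

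In knockout cells SNORD3A had 306 and 410 normalised reads without and 658 and 794 with arsenite, and the log2 fold change was 0.97 (SE 0.16, adjusted p = 1.48e-08, DESeq2) in the authors' deposited table. Its difference from the 7SL genes there was not tested. In wild-type rescue cells it was called lower, as both 7SL genes were, at -0.40 (SE 0.11, adjusted p = 0.00246, DESeq2) in the authors' deposited table.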
